A study of Homo sapiens with 6 samples.

Results

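The 53 genes described here encode DNA damage response and repair proteins. They were taken by symbol from a list of 53, a rule that uses no measured value, and all 53 were found among the 20667 gene symbols of each library. The libraries were 6 RNA-seq libraries of U2932, a diffuse large B-cell lymphoma line of the activated B-cell type. For the description the genes were placed in 8 pathways by their textbook roles. In both arms the cells had been infected with lentiviral pLKO.1 vectors that carry a puromycin resistance cassette and tGFP, a green fluorescent protein. The ROCK2 KD arm (3 libraries) carried an shRNA against ROCK2, a serine/threonine kinase, and the Scr shRNA arm (3 libraries) a scrambled shRNA. Replicates were numbered 1 to 3 in both arms. Both arms were stable infected lines of 1 cell line, and the labels do not say whether the numbered replicates were separate infections or cultures, so p-values measure only the spread between these libraries, which may be technical. The question addressed was which of these genes differ in RNA level when ROCK2 is silenced.

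A double-strand break is sensed by the kinases ATM and ATR, which pass the signal to CHEK1 and CHEK2 and halt the cell cycle. The break is then rejoined directly by non-homologous end joining, or its ends are resected by nucleases and copied from the sister chromatid by homologous recombination. Damage to 1 strand is handled by base excision, nucleotide excision and mismatch repair, and crosslinks by the Fanconi anemia pathway. In activated B cells, breaks are also made in the immunoglobulin genes during class switching, which end joining completes.

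The promoters of the 4 members with an unadjusted p under 0.05 in the comparison of the arms are shown because the values below turn on these genes. Each sequence holds the 250 bases before a RefSeq start of the gene (GRCh38.p14, a later build than the one behind the expression values), 5′ to 3′ on the gene's strand. Only 1 start was used for each symbol. Where a gene has other starts, BRCA1 included, the sequence before them was not searched, and the start used need not be the main one. Capitals mark CCAAT or its reverse complement ATTGG, the letters bound by NF-Y, and CACGTG, the E-box.
BRCA1 (chr17:43170328-43170577, minus strand): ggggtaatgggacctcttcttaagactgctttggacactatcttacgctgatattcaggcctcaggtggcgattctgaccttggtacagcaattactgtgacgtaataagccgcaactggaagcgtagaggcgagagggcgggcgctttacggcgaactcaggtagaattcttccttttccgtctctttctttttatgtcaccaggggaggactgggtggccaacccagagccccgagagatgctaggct
XRCC3 (chr14:103715452-103715701, minus strand): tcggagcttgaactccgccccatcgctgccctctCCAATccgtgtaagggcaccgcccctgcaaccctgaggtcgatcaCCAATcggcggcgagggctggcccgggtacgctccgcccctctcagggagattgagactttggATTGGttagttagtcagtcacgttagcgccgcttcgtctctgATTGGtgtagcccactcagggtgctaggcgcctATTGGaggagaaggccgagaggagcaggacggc
RAD9A (chr11:67391736-67391985, plus strand): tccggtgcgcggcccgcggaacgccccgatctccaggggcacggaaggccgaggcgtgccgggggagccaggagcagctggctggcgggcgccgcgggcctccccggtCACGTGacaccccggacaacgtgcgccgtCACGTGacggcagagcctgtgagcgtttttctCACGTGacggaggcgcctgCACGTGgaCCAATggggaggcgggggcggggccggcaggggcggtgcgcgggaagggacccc
RAD52 (chr12:949695-949944, minus strand): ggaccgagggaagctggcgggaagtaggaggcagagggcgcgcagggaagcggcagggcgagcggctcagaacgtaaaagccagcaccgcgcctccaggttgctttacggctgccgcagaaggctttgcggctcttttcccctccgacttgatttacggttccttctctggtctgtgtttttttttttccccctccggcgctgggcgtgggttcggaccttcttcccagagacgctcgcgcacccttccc
The sequences did not share a marked element. XRCC3 held 5 matches to the NF-Y letters, RAD9A held 1 such match and 4 E-boxes, and BRCA1 and RAD52 held no match to either. Promoters were found for 47 of the 53 members, and none was given for HUS1, NBN, WRN, XRCC5, PRKDC and FANCI. Searched on both strands, the NF-Y letters stood in 42.6% of the 47 and in 36.9% of 7959 promoters of tested genes. GGGCGG, the letters of SP1, stood in 74.5% and 68.3%, and CACGTG in 8.51% and 9.49%. The E2F letters (TTTCGCGC, TTTGGCGC, TTTCCCGC, TTTGGCGG or TTTCGCGG) stood in 4.26% and 5.65%, the cell cycle homology region TTTGAA in 10.6% and 8.33%, and the cyclic AMP response element TGACGTCA in 6.38% and 3.09%. None of these letter strings contains another, and over all 27305 promoters of the table the shares were 33.0% (NF-Y), 42.3% (SP1), 6.49% (E-box), 3.24% (E2F), 13.6% (TTTGAA) and 1.77% (TGACGTCA). The search for the E-box was added after the sequences were seen.

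ROCK2, the targeted gene, was listed at 2.75, 5.35 and 1.26 FPKM in ROCK2 KD replicates 1 to 3 and at 4.32, 7.21 and 5.78 in Scr shRNA. FPKM count fragments relative to the length of the transcript and to all mapped fragments of the library. ROCK2 was below its same-numbered control in 3 of 3 pairs, by log2 differences of -0.54, -0.35 and -1.55, the largest in replicate 3. Its log2 fold change was -0.81 ± 0.23 (SE), with an adjusted p of 0.789 (limma). ROCK1, the related kinase that the shRNA does not target, had a log2 fold change of 0.01 ± 0.10 (SE). Of 8 B-cell markers 7 were at 1 FPKM or more in every library, and of 12 markers of other cell types 11 were below 1 FPKM in every library, 1 of them at 0 throughout. The summed FPKM of these 12 lay between 3.72 and 5.92 in ROCK2 KD and between 3.30 and 5.29 in Scr shRNA, most of it from EPCAM, an epithelial adhesion molecule that reached 5.00. In bulk RNA, fewer cells that express a gene and less RNA in each cell cannot be told apart.

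All 53 repair genes reached 1 FPKM in at least 3 libraries and so entered the test, over 10526 genes in all. The members differed widely in level. The highest mean FPKM over 6 libraries belonged to XRCC6 (289.8), PARP1 (191), XRCC5 (147), APEX1 (145) and MSH6 (59.8). XRCC6 and XRCC5 encode the Ku heterodimer that caps broken ends, PARP1 senses strand breaks, APEX1 cuts abasic sites and MSH6 recognizes mismatches. The lowest were BRCA2 (1.34), BRIP1 (3.57) and WRN (3.79), which encode a mediator of homologous recombination, a helicase that binds BRCA1, and the RecQ helicase lost in Werner syndrome. Only BRCA2 and MDC1 were below 1 FPKM in any library, each in ROCK2 KD replicate 3.

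**Figure D1:**
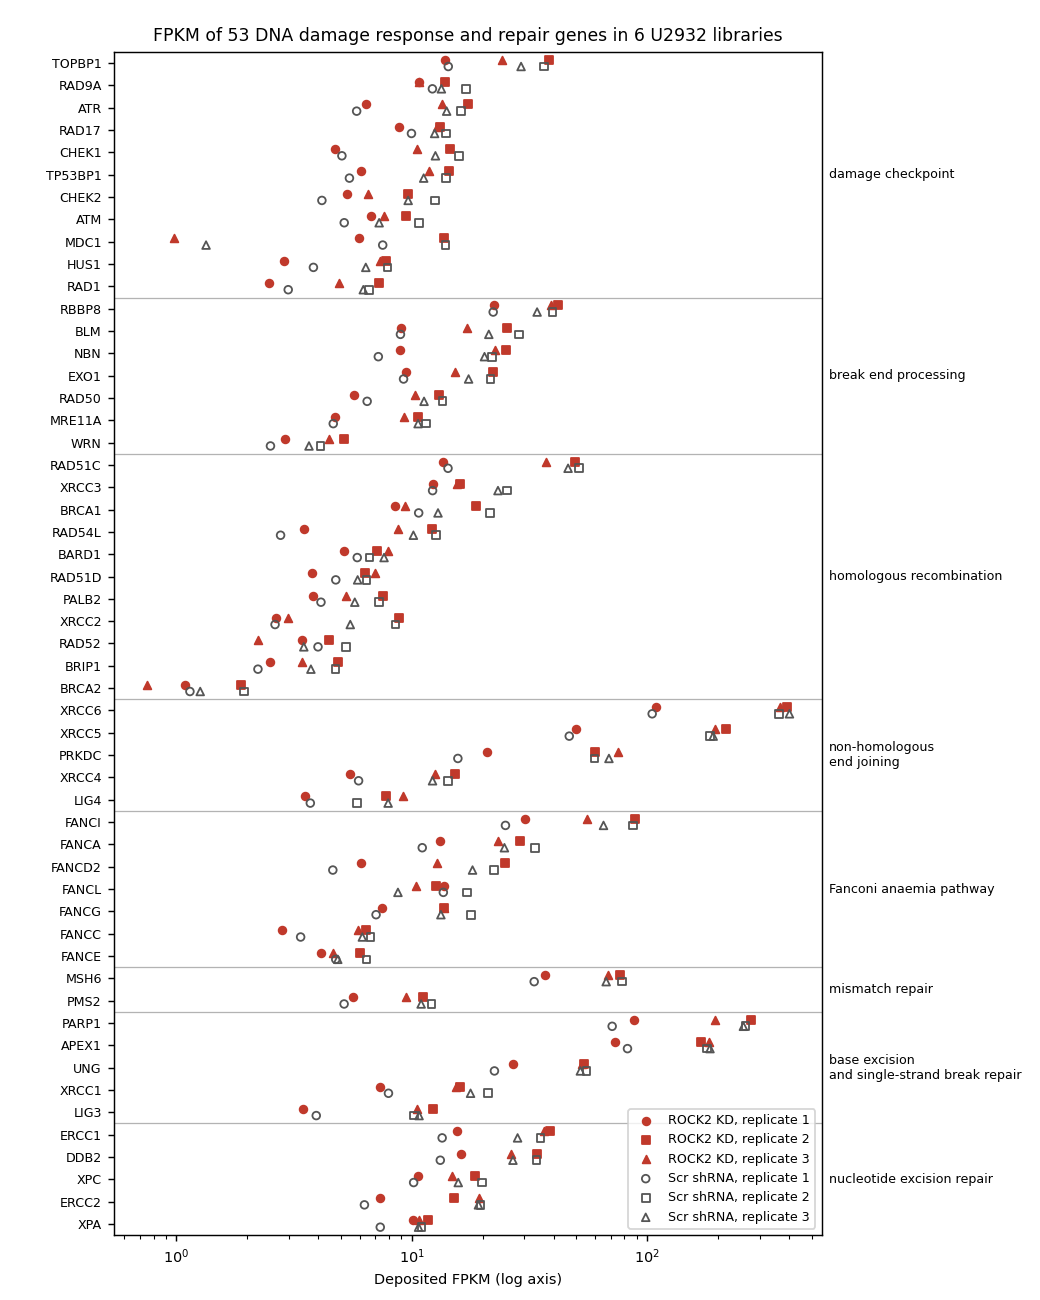
Deposited FPKM (log axis) of the 53 genes, grouped by pathway and ordered by mean level, with filled red symbols for ROCK2 KD and open symbols for Scr shRNA and 1 symbol shape for each replicate number. Circles (replicate 1) lie left of the other shapes in most rows of both arms, and the triangles (replicate 3) of MDC1 lie near 1 FPKM in both arms.

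For most members the spread by replicate number was wider than the spread by arm. The files of replicate 1 summed to 217309 (ROCK2 KD) and 208289 (Scr shRNA) FPKM, and those of replicates 2 and 3 to between 438262 and 480612. After scaling of the libraries, 45 of the 53 genes were still higher in replicate 2 than in replicate 1, averaged over both arms, by a median of 0.52 on the log2 scale (0.18 over all tested genes). Replicate 3 was below replicate 2 for 44 of 53, or 83.0%, against 46.7% of all tested genes. The SD among the 3 replicate numbers exceeded the size of the difference between the arms for 47 of the 53 genes (88.7%, against 86.8% of all tested genes). The replicate number was therefore kept as a block in the comparison.

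None of the 53 genes had an adjusted p under 0.05 between the arms (limma, lowest adjusted p 0.863). Of all 10526 tested genes 0 had one, a background of 0%, with a lowest adjusted p of 0.771. Before adjustment 4 of the 53 (7.55%) had a p under 0.05, BRCA1, XRCC3, RAD52 and RAD9A, all at lower values in ROCK2 KD. The background was 5.47% in either direction and 2.23% for lower values. All 4 are among 6 members (with BRCA2 and MDC1) that the study itself singled out on these libraries, so their direction is not independent evidence, and of the other 47 members 0 had a p under 0.05. When the replicate effect was instead removed by ComBat before a fit without a block, 3 members had an adjusted p under 0.05, BRCA1 (log2 fold change -0.23, adjusted p 0.0404), RAD9A (-0.19, adjusted p 0.0406) and ERCC1 (0.17, adjusted p 0.0498), against 2.8% of all tested genes. Before adjustment 11 members had a p under 0.05 in that fit, against 20.3% of all tested genes. Without any block or correction 0 members had an unadjusted p under 0.05, against 0.238% of all tested genes.

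BRCA1, a ubiquitin ligase that promotes resection, was at 8.52, 18.7 and 9.37 FPKM in ROCK2 KD and at 10.7, 21.5 and 12.9 in Scr shRNA. Each ROCK2 KD library lay below the control of its number, although the ranges of the arms overlapped. On the log2(scaled FPKM + 1) scale, which understates changes of low genes, the 3 differences were -0.31, -0.18 and -0.44 and the fitted log2 fold change was -0.31 ± 0.11 (SE, 95% interval -0.56 to -0.05, limma, adjusted p = 0.863). The gene lies on chromosome 17 from 41196312 to 41322262 on the minus strand (GRCh37), and a partial copy, BRCA1P1, is annotated, so that reads of shared sequence are uncertain.

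XRCC3, which acts in homologous recombination, was at 12.3, 16.0 and 15.5 FPKM in ROCK2 KD and at 12.3, 25.3 and 23.2 in Scr shRNA. The difference stood in replicates 2 and 3 and not in replicate 1. The differences within pairs were 0.0015, -0.61 and -0.56, and the log2 fold change was -0.39 ± 0.14 (SE, 95% interval -0.73 to -0.05, limma, adjusted p = 0.863). It was the lowest log2 fold change among the 53 genes. XRCC3 (chromosome 14, 104163946 to 104181841, minus strand, GRCh37) shares exonic sequence with KLC1 on the opposite strand. KLC1 itself had a log2 fold change of -0.07 ± 0.10 (SE).

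RAD52, which anneals complementary strands, was at 3.41, 4.44 and 2.21 FPKM in ROCK2 KD and at 3.99, 5.24 and 3.48 in Scr shRNA. It was lower in each of the 3 pairs, by log2 differences of -0.19, -0.18 and -0.48, with overlapping ranges. Its log2 fold change was -0.28 ± 0.12 (SE, limma, adjusted p = 0.903), and without replicate 3 the value was -0.18. RAD9A, a subunit with RAD1 and HUS1 of the clamp that is loaded at damaged DNA, was at 10.8, 13.8 and 10.7 FPKM in ROCK2 KD and at 12.2, 17.0 and 13.4 in Scr shRNA. Its differences within pairs lay close together, at -0.17, -0.27 and -0.31, and its log2 fold change was -0.25 ± 0.10 (SE, limma, adjusted p = 0.903). RAD52 lies on chromosome 12 (1020902 to 1099219, minus strand) and RAD9A on chromosome 11 (67085342 to 67165881, plus strand, both GRCh37). RAD9A shares exonic sequence with PPP1CA on the opposite strand, whose log2 fold change was 0.04 ± 0.10 (SE).

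**Figure D2:**
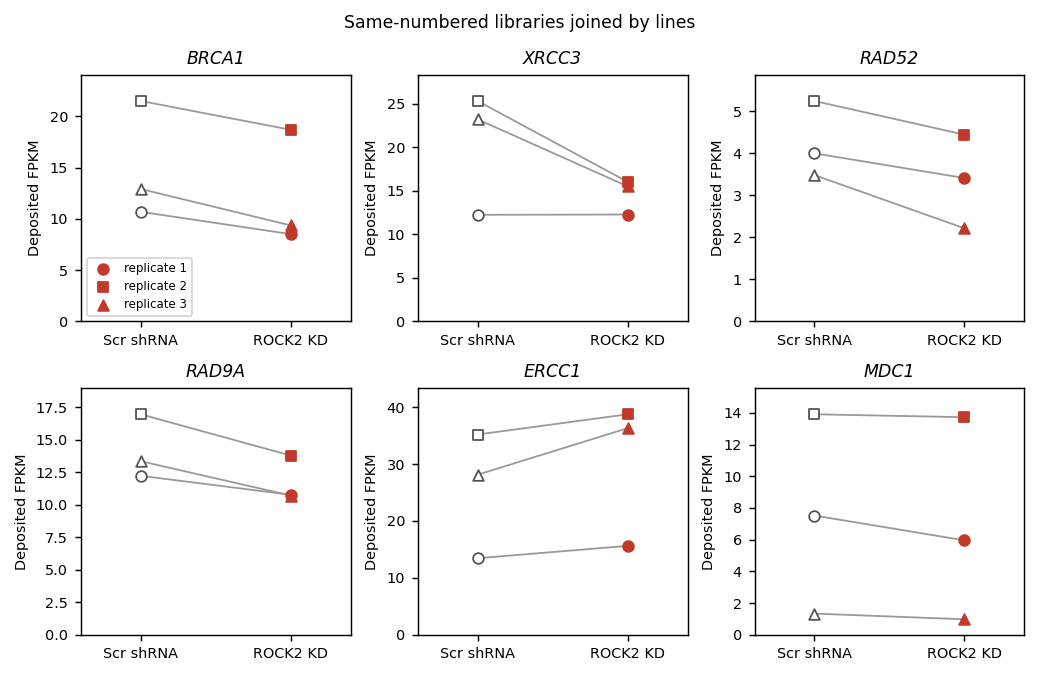
Deposited FPKM (linear axes from 0) of BRCA1, XRCC3, RAD52, RAD9A, ERCC1 and MDC1 in Scr shRNA (open) and ROCK2 KD (red), with a line joining the libraries of each replicate number. The lines of BRCA1, RAD52 and RAD9A slope down and those of ERCC1 slope up in 3 of 3 pairs, XRCC3 is flat in replicate 1, and MDC1 in replicate 3 stays below 1.4 FPKM in both arms.

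By sign alone, 32 of the 53 genes (60.4%) had a negative log2 fold change and 21 a positive one, against 49.9% negative over all tested genes. The median was -0.04 for the 53 genes and 0.0005 for all tested genes. Without the 6 genes that the study singled out it was -0.02, with 26 of 47 (55.3%) negative, and without replicate 3 the median of all 53 was 0.0066. In 3 of 3 pairs, 12 genes (22.6%) were lower, against a background of 11.8%, and 7 (13.2%) were higher, against 13.4%. The 12 were CHEK1, RAD9A, MDC1, RAD50, BRCA1, BRCA2, RAD51C, RAD52, FANCC, FANCE, APEX1 and XRCC1. Of the 47 genes that the study did not single out, 7 (14.9%) were lower in every pair, nearer to the background. The 7 higher genes were TP53BP1, NBN, RBBP8, WRN, XRCC5, PRKDC and ERCC1.

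**Figure D3:**
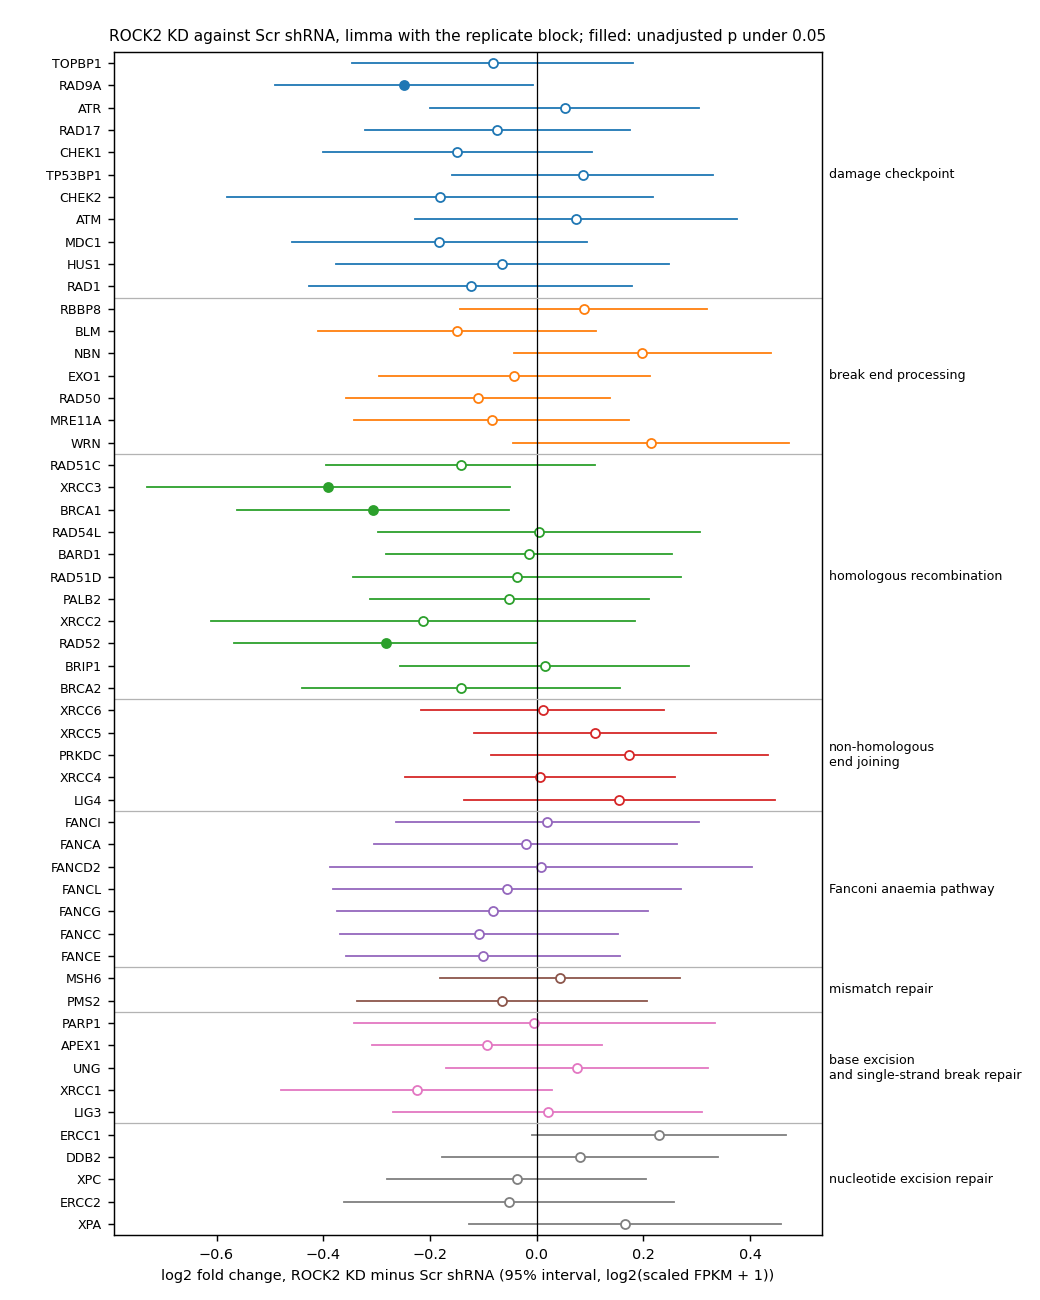
Fitted log2 fold change (ROCK2 KD minus Scr shRNA, on log2(scaled FPKM + 1)) of each of the 53 genes with its 95% interval, colored by pathway, with filled points for an unadjusted p under 0.05. The 4 filled points, RAD9A, XRCC3, BRCA1 and RAD52, lie left of 0, and the intervals of the other 49 genes include 0.

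The damage checkpoint held 11 genes, of which 1 (9.09%), RAD9A, had an unadjusted p under 0.05, against 5.47% of all tested genes. Their log2 fold changes ran from -0.25 (RAD9A) to 0.09 (TP53BP1), with a median of -0.08, and 8 (72.7%) were negative, against 49.9% of all tested genes. The apical kinases ATM (0.07 ± 0.13) and ATR (0.05 ± 0.11, SE) did not keep 1 sign over the pairs, with differences of 0.33, -0.15 and 0.04 for ATM and 0.12, 0.11 and -0.07 for ATR. CHEK1, the effector kinase of ATR, was at 4.72, 14.5 and 10.5 FPKM in ROCK2 KD and 5.05, 15.8 and 12.6 in Scr shRNA, below its control in every pair, with a log2 fold change of -0.15 ± 0.11 (SE). CHEK2, the effector of ATM, also differed in sign by replicate, with differences of 0.31, -0.34 and -0.51. The other clamp subunits were at -0.12 ± 0.13 (RAD1) and -0.06 ± 0.13 (HUS1), the clamp loader RAD17 at -0.07 ± 0.10 and TOPBP1, which activates ATR, at -0.08 ± 0.11 (SE). TP53BP1, which shields ends from resection, was higher in each pair by 0.15, 0.06 and 0.06.

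MDC1, the scaffold that binds phosphorylated histone H2AX, was at 5.96, 13.7 and 0.975 FPKM in ROCK2 KD and at 7.52, 13.9 and 1.34 in Scr shRNA. Both libraries of replicate 3 were far below the others, whatever the arm. Averaged over the arms, replicate 3 was below replicate 2 by a log2 difference of -2.65. MDC1 lies in the major histocompatibility complex on chromosome 6 (30667584 to 30685224, minus strand, GRCh37), and in the window from 28 to 34 Mb 117 of 120 tested genes were lower in replicate 3 than in replicate 2, with a median of -2.07 against 0.02 over all tested genes. Its neighbors NRM (1.75 and 1.80 FPKM in replicate 3 and between 9.95 and 16.1 in replicates 1 and 2) and DHX16 (2.22 and 2.38 against 9.90 to 21.5) showed the same drop in both arms. Within pairs the region did not differ by arm to that degree, with medians of -0.04, -0.01 and 0.01. The log2 fold change of MDC1 was -0.18 ± 0.12 (SE, limma, adjusted p = 0.956), with differences of -0.30, -0.01 and -0.24 in the 3 pairs, the last at levels near 1 FPKM. MDC1 also overlaps MDC1-AS1 and TUBB on the opposite strand.

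Break end processing held 7 genes, with log2 fold changes from -0.15 (BLM) to 0.21 (WRN), a median of -0.04 and 0 genes at an unadjusted p under 0.05. The MRN complex, which tethers and first cuts the ends, did not share a sign. NBN was at 8.91, 25.0 and 22.5 FPKM in ROCK2 KD and at 7.21, 21.8 and 20.4 in Scr shRNA (log2 fold change 0.20 ± 0.10, SE, limma, adjusted p = 0.954), while RAD50 was at -0.11 ± 0.10 and MRE11A at -0.08 ± 0.11 (SE). WRN, the other RecQ helicase beside BLM, was at 2.90, 5.16 and 4.43 FPKM in ROCK2 KD and at 2.51, 4.09 and 3.66 in Scr shRNA. After scaling, WRN was the 1 member of 53 whose arms did not overlap, at 3.82, 4.41 and 3.94 scaled FPKM against 3.31, 3.46 and 3.29, and 1.89% of all tested genes had arms that did not overlap. Its log2 fold change of 0.21 ± 0.11 (SE) had an adjusted p of 0.954 (limma). RBBP8, which promotes resection, and the nuclease EXO1 were at 0.09 ± 0.10 and -0.04 ± 0.11 (SE).

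Homologous recombination held 11 genes with a median of -0.14, and 4 of them (XRCC3, BRCA1, RAD52 and BRCA2) are genes that the study singled out on these libraries. The median of the other 7 was -0.04, and without replicate 3 the median of all 11 was -0.03. The log2 fold changes were negative for 9 of 11 and ran from -0.39 (XRCC3) to 0.02 (BRIP1), and 3 genes (27.3%), XRCC3, BRCA1 and RAD52, had an unadjusted p under 0.05. Over all tested genes 49.9% were negative, 5.47% had such a p and 2.23% had one with a lower value, and the 3 are among the genes the study singled out. BRCA2 was at 1.08, 1.88 and 0.747 FPKM in ROCK2 KD and at 1.14, 1.94 and 1.26 in Scr shRNA, apart only in replicate 3, with a log2 fold change of -0.14 ± 0.13 (SE, limma, adjusted p = 0.973). RAD51C, which forms a complex with XRCC3, was at 13.6, 49.5 and 37.0 FPKM against 14.2, 51.2 and 46.1 (-0.14 ± 0.11, SE). XRCC2, which acts in a complex with RAD51D, matched its control in replicates 1 and 2 and was at 2.99 FPKM against 5.48 in replicate 3, so that its value of -0.21 ± 0.17 (SE) came from 1 pair. The partners of BRCA1 and BRCA2 stayed near 0, BARD1 at -0.01 ± 0.11, PALB2 at -0.05 ± 0.11 and BRIP1 at 0.02 ± 0.11 (SE). RAD51D was at -0.04 ± 0.13 and RAD54L, a motor protein that aids strand invasion, at 0.0045 ± 0.13 (SE).

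Non-homologous end joining had positive values for 5 of 5 members, with a median of 0.11 and 0 genes at an unadjusted p under 0.05. This held without replicate 3 (median 0.15), but without replicate 1 XRCC6 was negative (4 of 5 positive, median 0.07) and without replicate 2 XRCC6 and XRCC4 were (3 of 5, median 0.04). PRKDC, the catalytic subunit of the DNA-dependent kinase, was at 20.8, 59.9 and 75.3 FPKM in ROCK2 KD and at 15.7, 59.6 and 68.7 in Scr shRNA. The arms were nearly equal in replicate 2 and its log2 fold change was 0.17 ± 0.11 (SE, limma, adjusted p = 0.956). LIG4, the ligase of the pathway, was at 0.16 ± 0.12 and its partner XRCC4 at 0.0063 ± 0.11 (SE). XRCC5 was at 49.6, 216 and 193 FPKM against 46.6, 184 and 191 (0.11 ± 0.10, SE). XRCC6 was at 109, 393 and 366 FPKM against 105, 364 and 402 (0.01 ± 0.10, SE), above its control in 2 pairs and below it in 1. These genes were also higher in replicate 2 than in replicate 1, by a median of 1.06 on the log2 scale, the widest gap of the 8 pathways.

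The Fanconi anemia pathway held 7 genes with log2 fold changes from -0.11 (FANCC) to 0.02 (FANCI), a median of -0.06 and 0 genes at an unadjusted p under 0.05. The sign of the median rested on replicate 2, without which it was 0.01 with 4 of 7 genes positive, and without replicate 1 all 7 were negative with a median of -0.10. FANCC, a subunit of the core ubiquitin ligase complex, was at 2.81, 6.40 and 5.88 FPKM in ROCK2 KD and at 3.37, 6.68 and 6.16 in Scr shRNA. FANCD2, which that ligase modifies together with FANCI, was at 6.09, 24.8 and 12.8 FPKM against 4.62, 22.3 and 18.1, above its control in replicates 1 and 2 and below it in replicate 3. FANCI showed the same order, at 30.2, 88.4 and 55.7 FPKM against 25.0, 87.0 and 65.2. The remaining members were at -0.02 (FANCA), -0.10 (FANCE), -0.08 (FANCG) and -0.06 (FANCL, the catalytic subunit).

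The pathways for damage to 1 strand had 0 genes at an unadjusted p under 0.05. Nucleotide excision repair had a median of 0.08 with 3 of 5 genes positive, and without replicate 1 it was -0.0079 with 2 of 5. The medians of base excision and single-strand break repair (-0.0047) and of mismatch repair (-0.01) also changed sign, to 0.06 and 0.04, without replicate 3. That of mismatch repair was positive without replicate 2 as well (0.0099), and that of base excision and single-strand break repair under ComBat (0.0098). In nucleotide excision repair ERCC1, which with ERCC4 cuts on the 5′ side of the lesion, was at 15.6, 38.7 and 36.3 FPKM in ROCK2 KD and at 13.5, 35.2 and 28.1 in Scr shRNA. It was higher in each pair, by 0.20, 0.15 and 0.34, and its log2 fold change of 0.23 ± 0.10 (SE, limma, adjusted p = 0.903) was the highest of the 53. ERCC1 shares exonic sequence with POLR1G on the opposite strand, listed as CD3EAP, whose log2 fold change was -0.17 ± 0.17 (SE). The damage sensors XPC (-0.04), DDB2 (0.08) and XPA (0.17 ± 0.12, SE) and the helicase ERCC2 (-0.05) had intervals that include 0.

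In base excision and single-strand break repair XRCC1, the scaffold that recruits the ligase LIG3, was at 7.35, 16.1 and 15.3 FPKM in ROCK2 KD and at 7.96, 21.1 and 17.8 in Scr shRNA. It was lower in each pair, with a log2 fold change of -0.22 ± 0.11 (SE, limma, adjusted p = 0.927), the lowest among the 47 genes that the study did not single out. LIG3 itself was at 0.02 ± 0.12 and APEX1 at -0.09 ± 0.09 (SE). PARP1 went from 88.0 FPKM against 70.9 in replicate 1 to 194 against 256 in replicate 3, with a log2 fold change of -0.0047 ± 0.14 (SE). UNG, the glycosylase that removes uracil from DNA, was at 0.08 ± 0.10, and the mismatch repair genes were at 0.04 ± 0.10 (MSH6) and -0.07 ± 0.11 (PMS2, SE).

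**Figure D4:**
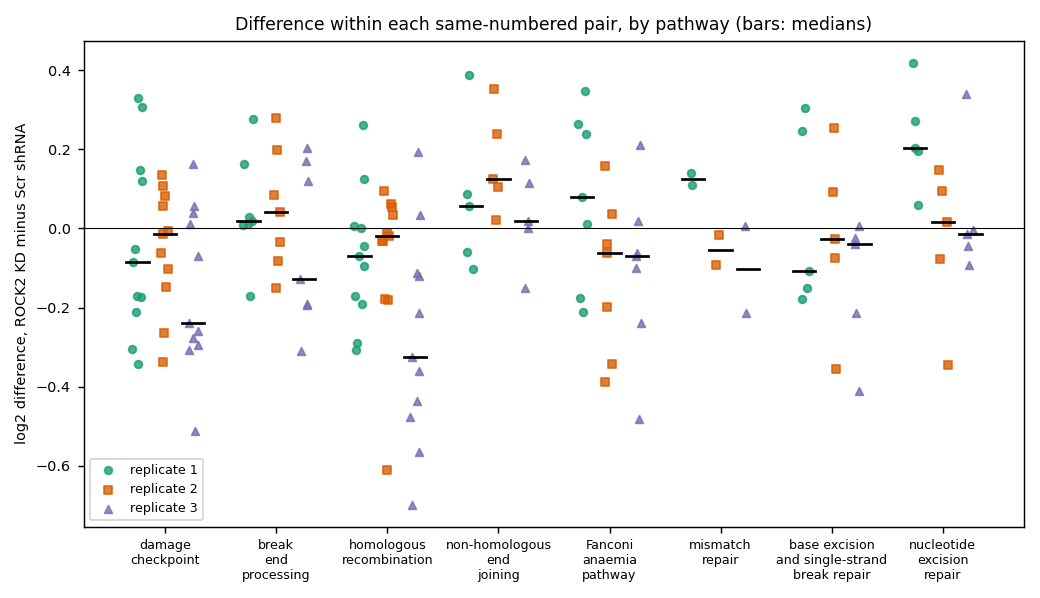
Log2 difference between ROCK2 KD and Scr shRNA within each same-numbered pair for the genes of the 8 pathways, with 1 point a gene, color and shape for the replicate number and black bars for medians. The homologous recombination bars, which include 4 genes that the study singled out on these libraries, lie below 0 in 3 of 3 pairs, and without those 4 the median of replicate 2 is 0.03. The end joining bars lie above 0.

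The signs depended on the pair. In replicate 1 22 of the 53 genes were lower in ROCK2 KD (median 0.01), in replicate 2 29 (median -0.01) and in replicate 3 35 (median -0.09). The homologous recombination medians were -0.07, -0.02 and -0.32, or -0.07, 0.03 and -0.12 without the 4 genes that the study singled out, and the end joining medians 0.06, 0.13 and 0.02. Many repair genes are expressed with the cell cycle, and of 26 proliferation markers 7 were lower in replicate 1, 14 in replicate 2 and 21 in replicate 3, with medians of 0.14, -0.02 and -0.20. ROCK2 itself differed by -0.54, -0.35 and -1.55 in replicates 1 to 3. Replicate 3 was thus also the pair with the largest fall of ROCK2. The part of the proliferation markers or of the ROCK2 level in the values of the repair genes was not tested. Leaving out replicate 3 gave 26 of 53 genes with a negative value, and leaving out replicate 1 gave 37. The checkpoint median kept its sign when 1 replicate number was left out, from -0.10 to -0.03, and that of break end processing ran from -0.08 to 0.04.

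Further lists covered other genes of the same processes. Of 58 other repair genes 39 (67.2%) had a negative log2 fold change, against 49.9% of all tested genes, with a median of -0.04. Of these 58, 10 (17.2%, against a background of 11.8%) were lower in every pair and 0 had an unadjusted p under 0.05. Of 20 other checkpoint genes 12 (60%) were negative and 1 (5%, against 5.47% of all tested genes) had an unadjusted p under 0.05. It was BRE, a subunit of the BRCA1-A complex, at 9.62, 19.1 and 21.3 FPKM in ROCK2 KD against 8.38, 15.9 and 15.2 (log2 fold change 0.29 ± 0.11, SE, limma, adjusted p = 0.863). Of 21 p53 target genes tested, which include the members XPC and DDB2, 13 were negative, and of the 19 that are no members 12 were. An unadjusted p under 0.05 was found for 3 of the 19 (15.8%, against a background of 5.47%, or 3.24% for higher values), all positive, SESN1 (0.33 ± 0.11), ZMAT3 (0.38 ± 0.12) and PLK3 (0.35 ± 0.13, SE). SESN1 encodes a stress-induced regulator of mTORC1 signaling, ZMAT3 an RNA-binding protein and PLK3 a stress-responsive kinase. Each of these was higher in 3 of 3 pairs, and their adjusted p values lay between 0.852 and 0.863. Of the 26 proliferation markers 1 (3.85%, against 5.47% of all tested genes) had an unadjusted p under 0.05. It was CDT1, a licensing factor of replication origins, at -0.47 ± 0.11 (SE, limma, adjusted p = 0.771). The study also named CDT1 on these libraries, so its direction is not independent evidence.

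The 95% interval of a member's log2 fold change had a median half-width of 0.26 and ran from 0.22 to 0.40, so that smaller differences could not be resolved with 3 pairs. These intervals are not adjusted for the number of genes tested. After adjustment larger differences were not called either, such as that of ROCK2 at -0.81 (limma, adjusted p = 0.789). For 31 of the 53 genes an exon overlaps another annotated gene, and 12 have a pseudogene named after them, including CHEK2, PMS2 and XRCC6.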

How the data were processed

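RNA-seq libraries of 3 ROCK2 KD and 3 Scr shRNA samples were analysed. The authors prepared Nextera libraries from total RNA, mapped paired reads to hg19 with STAR and deposited Cufflinks FPKM for 20667 symbols. Read strand is not given in the sources used here. The files hold no counts, so the depth behind a value is unknown and no counting interval is given. Scaling used trimmed means of the log ratios between libraries (trims 0.3 and 0.05). A gene was kept when 3 or more libraries reached 1 FPKM (10526 genes), and log2(scaled FPKM + 1) was fitted with limma 3.58.1 in R 4.3.3, with replicate number as a block, a variance trend and two-sided p-values with Benjamini-Hochberg adjustment at 0.05. Standard errors are the moderated ones of limma. Unadjusted p-values are given as counts under 0.05.

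The labels number the replicates in both arms, and the study's methods correct a batch effect by replicate. After the group means were subtracted, libraries with the same number correlated at 0.853, 0.785 and 0.741 across genes, and those of different numbers at -0.647 to 0.054, so the block was kept. ComBat was written out by hand, without the condition in its model. The code was tested on simulated data.

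The genes and lists were chosen with earlier results of these data known. The 25 genes followed through every alternative are those the study names, those with an unadjusted p under 0.05, the 3 largest rises and falls, the 5 highest and 3 lowest by mean FPKM, and the highest and lowest value of each pathway. Other members are named to complete their pathway. Positions are from GENCODE 44 on GRCh37 (52 members by symbol and 1, MRE11A, by its older symbol), and promoter sequences are from RefSeq (GRCh38.p14), matched by symbol. Protein sequences were not used here. Alternatives were no block, ComBat, another pseudocount, filter or scaling, no variance trend and leaving out each replicate number. Counts without the genes the study singled out, or without members shared by lists, were added after the data were seen.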

Additional observations from a re-analysis of the deposited data

How the results depend on the processing

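Under ComBat in place of the replicate block 3 repair genes had an adjusted p under 0.05, against 0 in each other setting, and 11 an unadjusted p under 0.05, as had 20.3% of all tested genes. This fit spends no degrees of freedom on the replicate number, and ComBat also rescales the spread within each replicate number. For BRCA1 its standard error was 0.0376 against 0.108 with the block, and its log2 fold change -0.23 against -0.31. The part of each step was not tested. With no replicate block 0 genes (0.238% of all tested genes) had an unadjusted p under 0.05. Without replicate 1, 2 or 3 there were 2, 1 and 0 repair genes (all tested genes 9.21%, 5.2% and 3.9%), against 4 with the block and 3 to 4 in the settings that changed the pseudocount, the filter, the scaling or the variance trend. With no filter on low values the 4 were BRCA1 and RAD9A, lower, and NBN and ERCC1, higher. RAD52 was past it in neither the fit with the other pseudocount nor that with median of ratios scaling. Without replicate 1 the genes were XRCC3 and CHEK2, and without replicate 2 BRCA1 alone. With 2 pairs left, where fewer pairs have to share a sign, 20, 16 and 14 genes were lower in every pair without replicate 1, 2 or 3 (all tested genes 25.7%, 23.4% and 21.5%), and 10, 11 and 17 were higher (29.4%, 25.2% and 25.4%).

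Of 25 genes followed through 11 alternatives, 260 of 273 values kept their direction and their side of the adjusted threshold, BRCA1, RAD9A and ERCC1 passed it under ComBat alone, and 17 genes never changed sign. A kept sign did not mean a kept size. BLM went from -0.15 to -0.063 without replicate 3, XRCC5 from 0.11 to 0.043 without replicate 2 and PRKDC from 0.17 to 0.073 without replicate 1. PARP1 was at 0.013 under ComBat. Over the fits that left out 1 replicate number the log2 fold changes of the genes that changed sign ran from -0.035 to 0.083 (BRIP1), -0.047 to 0.098 (XRCC6), -0.043 to 0.068 (XRCC4), -0.095 to 0.16 (FANCI), -0.15 to 0.014 (PMS2), -0.0035 to 0.13 (UNG), -0.15 to 0.20 (PARP1) and -0.17 to 0.093 (ERCC2). The cause was not tested. BRCA2 and MDC1 could not be tested where an FPKM of at least 1 was required in every library.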
